A study of Mus musculus with 15 samples.

Results

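The genes described here encode the B cell receptor complex, the signalling proteins and inhibitory receptors that act with it, and transcription factors and surface proteins of B cell identity. The list held 37 genes, chosen by name with earlier results of these data known. A gene was measured where a feature of the array carried its symbol and no other. This gave 35 genes with 1 feature each, of 22206 features tested in all, while Lyn and Pou2f2 were not analysed here. Spleens came from male C57bl/10 mice, either intact, with no operation, or taken 1, 3 or 7 days after removal of 70% of the liver volume, and total RNA of whole spleen was put on Clariom S mouse arrays, 1 array per spleen. There were 6 intact spleens and 3 spleens on each day, 15 arrays in all, called biological replicates in the labels. No arrays of sham-operated mice were analysed here, so that the resection and the operation itself cannot be told apart. The intact spleens are numbered to 6 and were used as sets, 1 to 3 for days 1 and 7 and 4 to 6 for day 3.

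A B cell recognises antigen through a membrane immunoglobulin, which has almost no signalling tail of its own and works through the Cd79a and Cd79b chains. Antigen leads the Src family kinases Blk and Lyn and then Syk to phosphorylate these chains, the adaptor Blnk gathers Btk and Plcg2 on them, and calcium release and protein kinase C beta (Prkcb) follow. Cr2 and Cd81 belong to a co-receptor that lowers the threshold for activation. Cd22, Cd72, Fcgr2b and Siglecg recruit the phosphatases Ptpn6 (SHP-1) and Inpp5d (SHIP) and raise it. Ebf1 and Pax5 establish and hold B cell identity, and Pou2af1 is the coactivator of octamer factors in B cells. In the spleen most B cells lie in follicles of the white pulp. Of the 35 genes, 18 are known mainly from the B lineage, such as Cd79a, Pax5 and Blk, and 17 are also strong in other blood cells, such as Syk, Ptpn6 and Inpp5d in myeloid cells and Btla in T cells. In whole spleen, fewer cells of a type and less RNA per cell cannot be told apart.

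The promoters of several of these genes are set out here as a description, and no link between their sequences and the levels was tested. RefSeq (GRCm38.p6) gave 38 annotated starts for 31 of the 35 genes, and the 250 bases before each were searched on both strands for letters known from B cell factors. In 16 of the 38 these bases lay outside the annotated span of the gene. The E-box CAGGTG, known to bind E2A proteins, was present at 14 of the 31 genes, and in 39.5% of their promoters against 17.2% of 32851 promoters of all genes. The ETS core GAGGAAGT, known to bind PU.1 and Spi-B, was present at Btla, Cd37, Cd72, Fcrl1 and Inpp5d, in 13.2% against 2.44%. The octamer ATGCAAAT was present at Blnk and Prkcb, in 5.26% against 1.6%. The EBF letters, TCCC and GGGA with 2 bases between them, were present at Cd22, in 2.63% against 0.779%. A match in such a window is a description and not a binding site. Cd79a, Ebf1 and Pax5 are shown in full, as a receptor chain and the identity factors that had 3 of the 4 lowest day 7 values, and 60 bases are shown around an octamer, an ETS core and an E-box in other members. The stretches are chr7:24897247-24897496 on the plus strand (Cd79a), chr11:44617850-44618099 on the plus strand (Ebf1), chr4:44710695-44710944 on the minus strand (Pax5), chr19:40994318-40994377 on the minus strand (Blnk), chr1:87620252-87620311 on the plus strand (Inpp5d) and chr15:82224444-82224503 on the minus strand (Tnfrsf13c). Each is written along the strand of its gene, with the E-box of Cd79a and Tnfrsf13c, the octamer of Blnk and the ETS core of Inpp5d in capitals.
Cd79a: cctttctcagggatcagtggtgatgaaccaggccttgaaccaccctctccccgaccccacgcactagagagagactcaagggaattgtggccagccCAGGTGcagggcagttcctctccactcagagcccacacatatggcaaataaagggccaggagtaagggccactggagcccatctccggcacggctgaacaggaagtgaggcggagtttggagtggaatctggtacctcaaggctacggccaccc
Ebf1: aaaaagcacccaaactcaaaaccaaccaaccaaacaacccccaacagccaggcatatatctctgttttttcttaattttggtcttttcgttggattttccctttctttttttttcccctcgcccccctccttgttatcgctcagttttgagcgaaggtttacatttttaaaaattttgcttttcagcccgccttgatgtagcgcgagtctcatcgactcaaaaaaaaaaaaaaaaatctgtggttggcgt
Pax5: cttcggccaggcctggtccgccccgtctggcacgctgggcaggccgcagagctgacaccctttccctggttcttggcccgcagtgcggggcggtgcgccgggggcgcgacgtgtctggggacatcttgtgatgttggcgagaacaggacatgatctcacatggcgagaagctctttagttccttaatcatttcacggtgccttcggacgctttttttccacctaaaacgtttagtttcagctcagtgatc
Blnk: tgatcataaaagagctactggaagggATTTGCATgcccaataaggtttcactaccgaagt
Inpp5d: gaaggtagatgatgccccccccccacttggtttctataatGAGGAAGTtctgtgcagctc
Tnfrsf13c: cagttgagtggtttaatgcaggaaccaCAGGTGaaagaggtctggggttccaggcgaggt
The E-box of Cd79a starts 154 bases and the octamer of Blnk 130 bases before the annotated start. The ETS core of Inpp5d starts 20 bases and the E-box of Tnfrsf13c, the BAFF receptor, 96 bases before the start. None of the letters searched was present in the printed stretches of Ebf1 and Pax5.

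Levels are log2 values, so that a difference of 1 is a fold of 2 if the deposited scale was not transformed further. Array medians lay between 4.74 and 4.89, and the levels of the 35 genes between 3.49 and 17.28. Siglecg, an inhibitory lectin of B cells, was the only member with a mean below the array medians, and its values are near the low end of the scale. Differences are given with the standard error of limma, and a feature was called at an adjusted p under 0.05 over the 22206 features. The arrays correlated with each other at 0.944 to 0.987 over all features. Cd79a, Cd79b and Cr2 were well above the array medians on every array. Means over 17 pancreatic acinar genes were 14.84 and 12.53 in intact spleens 1 and 2, against 4.78 in intact spleen 3 and 3.55 to 7.92 on the other 12 arrays. Intact spleens 1 and 2 are controls of days 1 and 7. Values without them are given for the members together and for a few single genes. Most single-gene differences of these days include them.

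**Figure D1:**
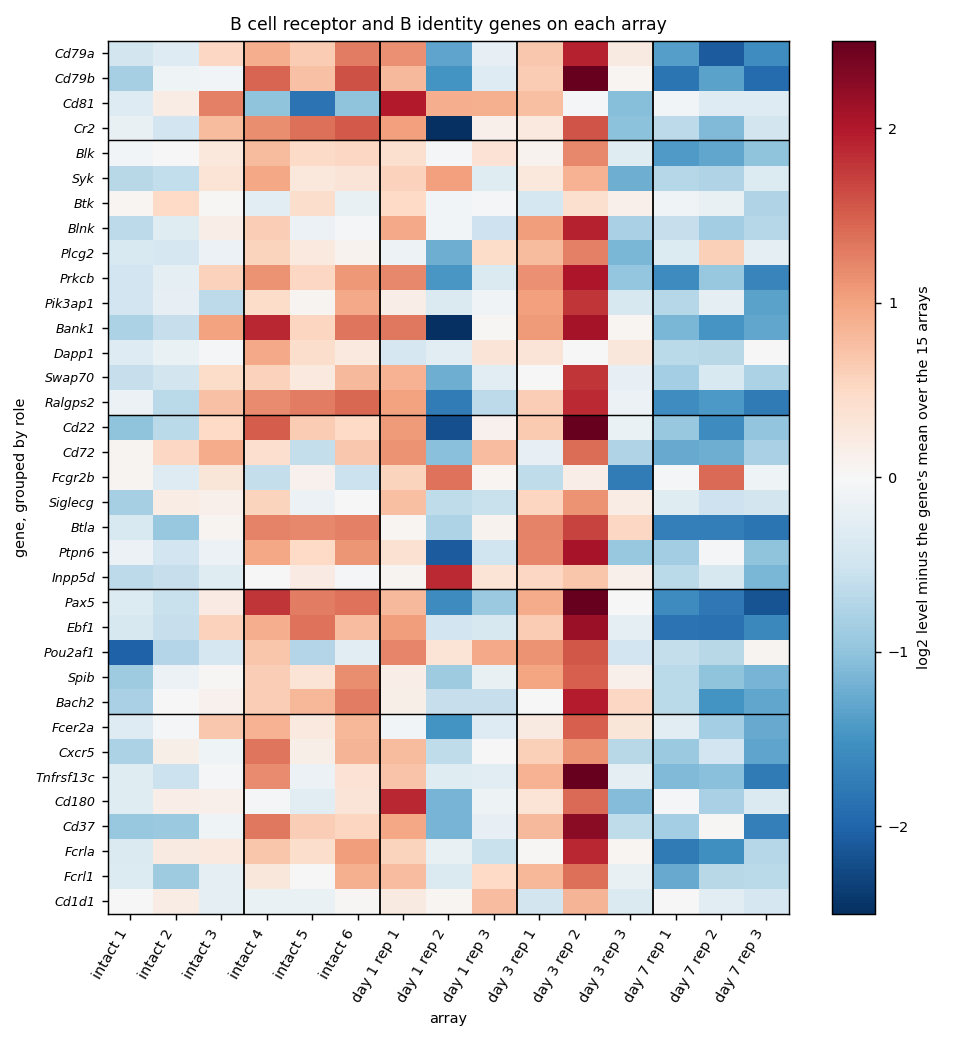
Log2 level of each of the 35 genes (rows, grouped by role) on each of the 15 arrays (columns), less the mean of the gene over all arrays. Red is above and blue below that mean, and day 7 is mostly blue. The arrays of days 1 and 3 are spread. In the mean over the members, replicate 1 is highest and replicate 2 lowest on day 1, and replicate 2 highest and replicate 3 lowest on day 3.

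On day 7 the B cell genes were mostly lower than in intact spleens 1 to 3, but no single gene passed the test. Of 35 members 32 had a lower mean, the median log2 difference was -0.61 against 0.00 over all features, and the middle of the distribution ran from -1.32 to -0.30. With limma, 0 members were called and 0% of all features. At an unadjusted p under 0.05 there were 9 members, all lower, against 4.45% of all features that were lower at this level. In 13 members the day 7 arrays lay wholly below the intact arrays, against 8.31% of all features, and 12 members were lower by at least 1, against 1.54%. Members known mainly from the B lineage had a median of -1.10, with 17 of 18 lower and 8 at an unadjusted p under 0.05. Those shared with other blood cells had a median of -0.38, with 15 of 17 lower and 1 at this level. The difference between these classes of members was not tested. All of these values rest on 3 arrays against 3, and with 1 array left out the median ran from -0.89 (without intact spleen 1) to -0.42 (without intact spleen 3), with 0 members called each time.

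In the receptor complex and co-receptor all 4 genes had lower means on day 7. Cd79a (Ig-alpha), gene ID 12518 at chr7:24897497-24901858, was at 12.66, 12.79 and 13.64 in intact spleens 1 to 3 and at 11.73, 11.04 and 11.57 on day 7. The groups did not overlap, with a difference of -1.58 ± 0.53 (SE, n = 3 against 3) and an adjusted p of 0.3303 in limma. Cd79b (Ig-beta) was at 10.91, 11.63 and 11.67 in the intact spleens and at 9.91, 10.40 and 9.83 on day 7. These arrays also lay apart, by -1.36 ± 0.60 with an adjusted p of 0.4473 in limma. Cr2, the complement receptor of the co-receptor, differed by -0.78 ± 0.93 and the tetraspanin Cd81 by -0.61 ± 0.47, with overlapping arrays in both.

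Among kinases, adaptors and effectors 10 of 11 genes had lower means, with a median of -0.48. Blk, the Src family kinase most restricted to B cells, was at 8.99, 9.07 and 9.33 in the intact spleens and at 7.65, 7.76 and 8.05 on day 7. All day 7 arrays were thus below all intact ones, by -1.31 ± 0.31, and its adjusted p of 0.2216 in limma was the smallest of any member on this day. The other genes without overlap were Ralgps2, an exchange factor for Ral proteins, at -1.56 ± 0.59, Prkcb at -1.34 ± 0.68, the scaffold Bank1 at -1.19 ± 0.99 and the kinase Btk at -0.54 ± 0.29. Syk, the kinase that binds the phosphorylated receptor, differed by -0.30 ± 0.47 and its adaptor Blnk by -0.45 ± 0.54. Plcg2, the phospholipase that starts calcium release, was at 9.02, 8.99 and 9.27 in the intact spleens and at 9.06, 10.00 and 9.19 on day 7. Its difference of 0.32 ± 0.52 was the only positive value of this role, and the arrays overlapped.

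**Figure D2:**
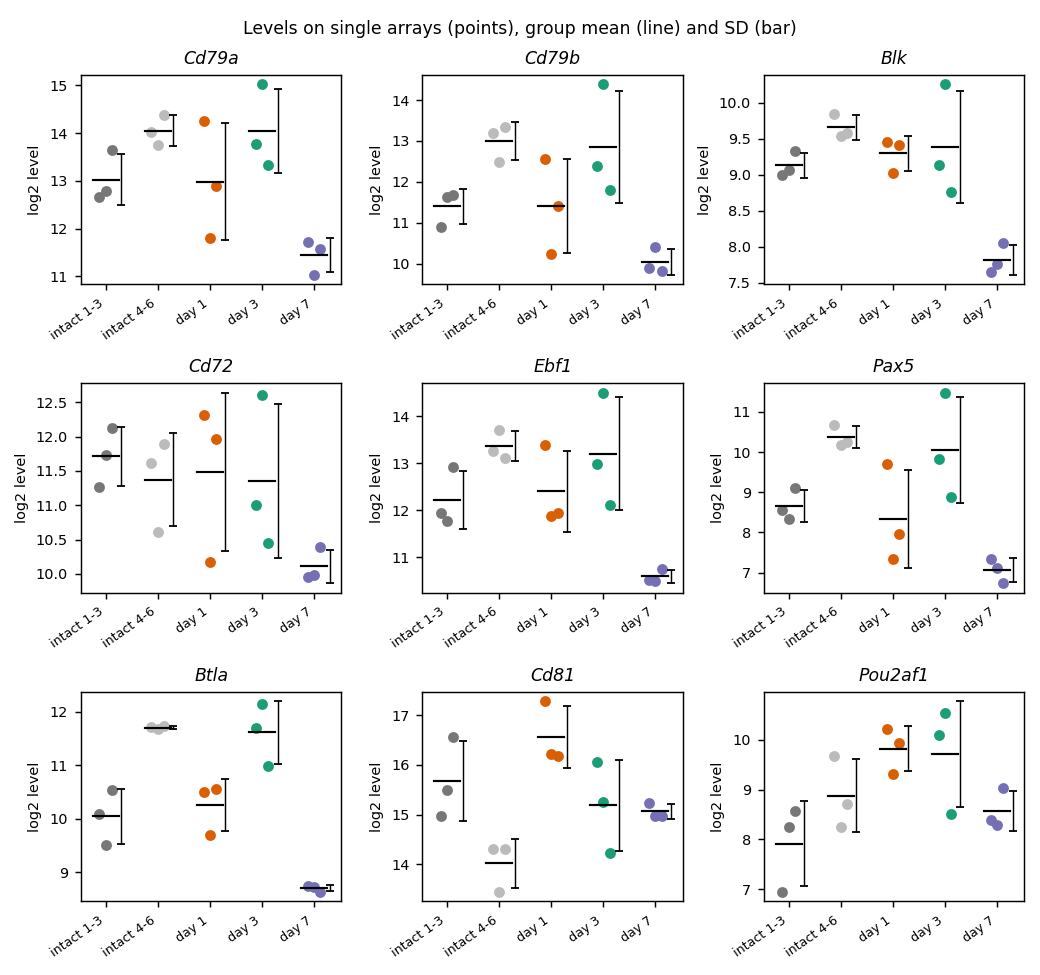
Log2 levels on single arrays for 9 genes, with points for arrays, a line for the group mean and a bar for the SD (n = 3). On day 7 Cd79a, Cd79b, Blk, Cd72, Ebf1, Pax5 and Btla lie below all arrays of both intact sets, whereas Cd81 and Pou2af1 overlap with at least 1 set.

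Among inhibitory receptors and phosphatases 6 of 7 genes had lower means on day 7, with a median of -0.38. Cd72, a C-type lectin that recruits Ptpn6, was at 11.27, 11.73 and 12.13 in the intact spleens and at 9.95, 9.99 and 10.39 on day 7. The groups lay apart by -1.60 ± 0.57, with an adjusted p of 0.3441 in limma. Btla, an inhibitory receptor of B and T cells at chr16:45223705-45252895, was at 10.09, 9.52 and 10.54 in the intact spleens and at 8.75, 8.73 and 8.64 on day 7. The day 7 arrays were close to each other and below the intact ones, by -1.34 ± 0.32 with an adjusted p of 0.2264 in limma. Fcgr2b, the inhibitory Fc receptor that is also found on macrophages, was at 11.20, 10.80 and 11.43 in the intact spleens and at 11.08, 12.55 and 11.03 on day 7. Its difference of 0.41 ± 0.49 came with 1 high array, and without day 7 replicate 2 it was -0.09. The phosphatases differed by -0.38 ± 0.65 (Ptpn6) and -0.23 ± 0.37 (Inpp5d), with overlap in both.

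Of the transcription factors 4 of 5 had lower means on day 7, with a median of -0.92. Ebf1 was at 11.95, 11.78 and 12.93 in the intact spleens and at 10.52, 10.49 and 10.75 on day 7. This was the most negative difference of the 35 genes, -1.63 ± 0.52 with an adjusted p of 0.3205 in limma and no overlap. Pax5 was at 8.55, 8.34 and 9.11 in the intact spleens and at 7.33, 7.11 and 6.74 on day 7. It differed by -1.60 ± 0.59 with an adjusted p of 0.3595 in limma, again without overlap. Bach2, a repressor of the plasma cell program, was at -0.92 ± 0.43 and Spib, an ETS factor, at -0.61 ± 0.37, with overlapping arrays. Pou2af1 was at 6.95, 8.24 and 8.56 in the intact spleens and at 8.39, 8.28 and 9.04 on day 7. Its value of 0.65 ± 0.53 was the highest of all members on day 7, and intact spleen 1 was its lowest array. Without that spleen it was 0.17, below the 0.44 of Fcgr2b and the 0.28 of Plcg2 in the same setting.

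The other surface and B cell proteins, 8 genes, all had lower means on day 7, with a median of -0.53. Fcrla, an Fc receptor-like protein held inside B cells, differed by -1.37 ± 0.45 and Tnfrsf13c, the receptor through which BAFF keeps B cells alive, by -1.02 ± 0.55, both without overlap. The low-affinity IgE receptor Fcer2a differed by -0.90 ± 0.43 and Cxcr5, the receptor that guides B cells to follicles, by -0.66 ± 0.47. The tetraspanin Cd37 was at 10.23, 10.25 and 11.07 in the intact spleens and at 10.32, 11.21 and 9.46 on day 7. Its arrays overlapped, and the difference was -0.19 ± 0.65.

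**Figure D3:**
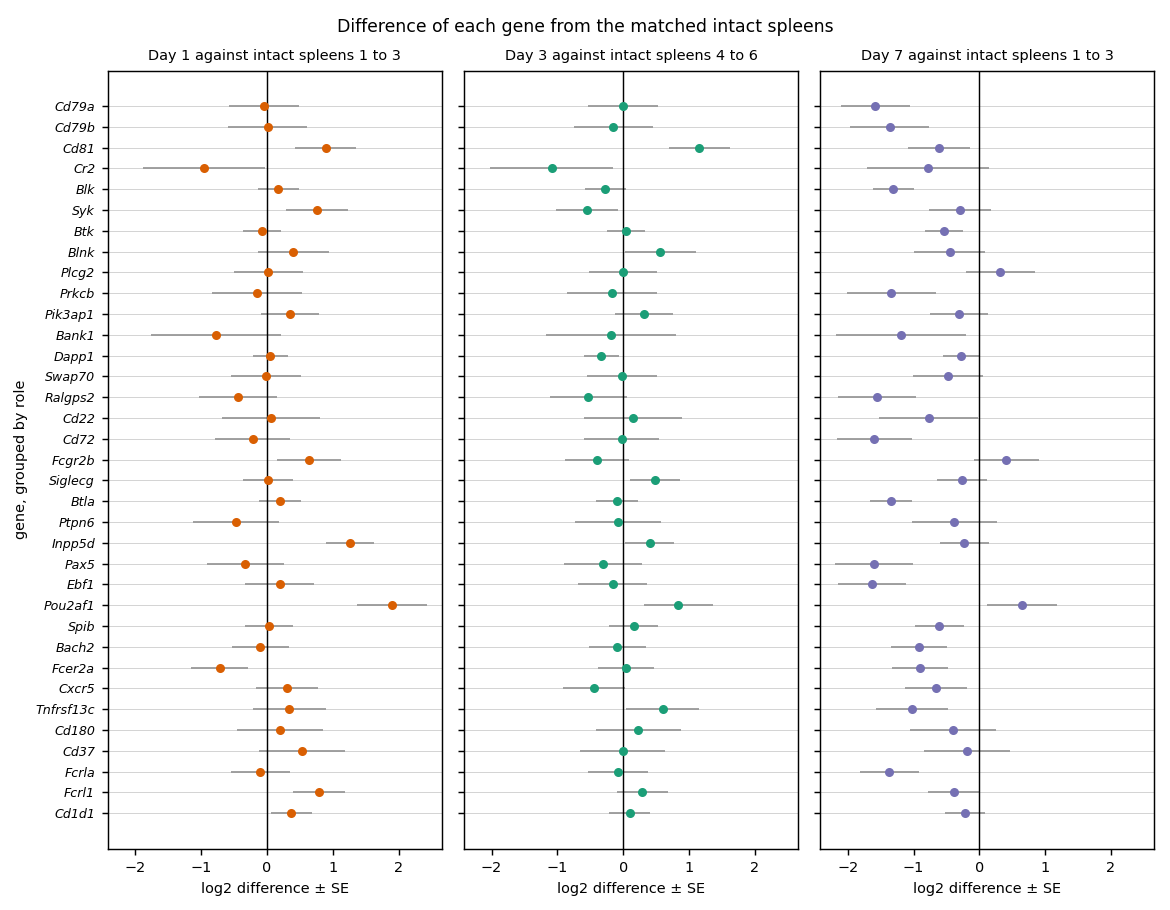
Log2 difference of each gene from its set of intact spleens on day 1, day 3 and day 7, with bars for the standard error of limma (n = 3 against 3). On day 7 32 of 35 points lie below 0, whereas on days 1 and 3 the points lie on both sides.

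Other cell types had values on day 7 that moved beside those of the B cell genes. All 16 measured T cell genes had lower values (median -1.12), and their means per array were 6.37 to 6.48 against 7.14 to 7.88 in intact spleens 1 to 3. All 15 neutrophil genes were higher, with a median of 2.24. The share of these lists in the values of the B cell genes was not tested. Plasma cell genes, which B cells take on when they secrete antibody, did not go the same way, with 6 of 11 higher and a median of 0.30, led by Fkbp11, a chaperone of the secretory pathway, at 1.19 ± 0.45. Of 48 other genes of the receptor pathway 30 were lower and 18 higher, with a median of -0.24 and 4 at an unadjusted p under 0.05. These were the calcium channel Itpr2 at -1.91 ± 0.59, Nfatc2 at -0.57 ± 0.22, the kinase Ikbkb at -0.85 ± 0.36 and the NF-kappaB subunit Rel at -1.22 ± 0.55, and none was called. Among 19 other B cell markers 15 were lower, with a median of -0.54, among them H2-Ob and H2-DMb2 of antigen presentation at -1.42 ± 0.61 and -1.48 ± 0.65. Marginal zone B cell genes had a median of -0.37 (9 of 12 lower) and germinal centre genes one of -0.30 (6 of 9 lower).

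The choice of intact spleens set the size and the calls of day 7. Against all 6 intact spleens the median of the members was -1.14, with 207 features called, of which Blk and Btla were members (adjusted p of 0.0386 and 0.0458 in limma). Against intact spleens 4 to 6 it was -1.50, with 1298 features called, among them 12 members, all lower. These were Cd79a, Cd79b, Blk, Dapp1, Ralgps2, Btla, Pax5, Ebf1, Spib, Bach2, Cxcr5 and Fcrla. Against intact spleen 3 alone, the control of this set with a low level of acinar genes, the median was -1.13 with 0 members called. With the acinar mean as a covariate it was -0.92, also with 0 members called. The direction was the same in all of these, with 31 to 33 of 35 members lower.

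On day 1 the B cell genes went in no common direction. Of 35 members 22 had a higher and 13 a lower mean, the median was 0.05 against 0.00 over all features, and 0 members and 0% of all features were called. Against intact spleen 3 alone 23 members were lower, with a median of -0.26, and with the acinar mean as a covariate 20 were lower, with a median of -0.10. At an unadjusted p under 0.05 there were 2 members, both higher, against 4.48% of all features, and the same number had arrays wholly above the intact ones, against 7.89%. Pou2af1 was at 10.21, 9.32 and 9.93 on day 1, above its intact arrays given for day 7. Its difference was 1.90 ± 0.53 with an adjusted p of 0.5819 in limma. Inpp5d, the lipid phosphatase SHIP, was at 10.62, 10.69 and 10.98 in the intact spleens and at 11.34, 13.13 and 11.61 on day 1. It differed by 1.26 ± 0.37 without overlap, with the same adjusted p of 0.5819 in limma. Replicate 2 was high, and without it the difference was 0.72.

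Cd81 and Fcrl1 followed among the positive values of day 1. Cd81 was at 14.97, 15.49 and 16.56 in the intact spleens and at 17.28, 16.21 and 16.18 on day 1, an overlap with a difference of 0.89 ± 0.47. Intact spleen 3, at 16.56, lay within the day 1 arrays, whose mean was also 16.56. Without intact spleen 1 the difference was 0.54. Fcrl1, an Fc receptor-like protein of B cells, was at 7.75, 7.20 and 7.85 in the intact spleens and at 8.85, 7.73 and 8.58 on day 1. It differed by 0.79 ± 0.39, and replicate 2 lay within the intact arrays. Cd79a was at 14.26, 11.80 and 12.90 and Cd79b at 12.56, 10.25 and 11.42 on day 1, so that both spanned their intact arrays. Their differences were -0.05 ± 0.53 and 0.01 ± 0.60, smaller than the spread within the day.

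The members with the most negative values of day 1 all had their lowest array in replicate 2. Cr2 was at 10.96, 10.65 and 11.92 in the intact spleens and at 12.16, 7.22 and 11.26 on day 1, a difference of -0.96 ± 0.93. Bank1 was at 12.59, 12.81 and 14.38 in the intact spleens and at 14.69, 9.33 and 13.41 on day 1, a difference of -0.78 ± 0.99. In both genes the other arrays of the day lay above the intact mean. Fcer2a was at 8.48, 8.75 and 9.48 in the intact spleens and at 8.74, 7.31 and 8.48 on day 1, with a difference of -0.72 ± 0.43. Ptpn6 was at 11.42, 11.09 and 11.42 in the intact spleens and at 11.94, 9.49 and 11.08 on day 1, with a difference of -0.47 ± 0.65. Without replicate 2 the values of Cr2, Bank1, Ptpn6 and Cd79a were 0.54, 0.79, 0.20 and 0.55, and only 2 of the 35 members were lower, with a median of 0.48. Without replicate 1, which had the highest mean, 23 were lower, with a median of -0.26. The mean of replicate 2 over the members was 9.33, against 10.81 and 10.06 in replicates 1 and 3, but Inpp5d, Fcgr2b and Syk had their highest day 1 level on it. Of the 48 other pathway genes 38 were higher on day 1, with a median of 0.24, led by the NF-kappaB inhibitor Nfkbia at 1.41 ± 0.51, and none was called. Red pulp macrophage genes had a median of 1.06 on day 1, with 12 of 15 higher, and their part in the values of Inpp5d and other shared genes was not tested.

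On day 3 the means of the B cell genes lay close to those of intact spleens 4 to 6. Of 35 members 15 were higher and 20 lower, with a median of -0.02, and 0 were called against 0.00901% of all features. At an unadjusted p under 0.05 there was 1 member, Cd81, against 5.76% of all features that were higher at this level, and no member had arrays wholly above or below the intact ones, against 6.78% and 5.38%. Cd81 was at 14.30, 13.45 and 14.30 in intact spleens 4 to 6 and at 16.06, 15.26 and 14.23 on day 3. Its difference was 1.16 ± 0.47 with an adjusted p of 0.4672 in limma, and replicate 3 lay among the intact arrays. Pou2af1 was at 9.68, 8.25 and 8.71 in these intact spleens and at 10.10, 10.53 and 8.51 on day 3, a difference of 0.84 ± 0.53 with overlap.

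The spread between spleens was wide on day 3. The median SD of the members was 1.06 on day 3, against 0.34 over all features, and 0.36 in intact spleens 4 to 6. The means over the members were 10.63, 11.64 and 9.76 on the 3 arrays. In replicate 2 34 members were above the mean of intact spleens 4 to 6, and in replicate 3 31 were below it. Without replicate 2 the median was -0.64 with 31 lower, and without replicate 3 it was 0.38 with 4 lower. Erythroid genes had means of 11.11, 8.26 and 13.62 on these arrays. Neutrophil genes were at 14.32, 11.60 and 9.60 and red pulp macrophage genes at 11.28, 10.03 and 8.67. Against intact spleens 4 to 6, all 15 red pulp macrophage genes were higher (median 0.65) and 15 of 16 T cell genes lower (median -0.48). The part of these lists in the values of the members was not tested.

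Single genes showed this order of the arrays. Cd79a was at 14.02, 13.75 and 14.39 in intact spleens 4 to 6 and at 13.78, 15.03 and 13.34 on day 3, with means of 14.06 and 14.05. Cd79b was at 13.20, 12.48 and 13.34 in the intact spleens and at 12.38, 14.39 and 11.80 on day 3, a difference of -0.15 ± 0.60. Replicate 2 was the highest and replicate 3 the lowest array of the day in both. Tnfrsf13c was at 10.24, 8.90 and 9.41 in the intact spleens and at 9.91, 11.63 and 8.82 on day 3 (0.60 ± 0.55). Blnk was at 10.55, 9.79 and 9.90 in the intact spleens and at 10.97, 11.85 and 9.12 on day 3 (0.56 ± 0.54). In these genes replicates 1 and 2 lay above the intact mean and replicate 3 below it. Without replicate 2 the differences were -0.15 and -0.04.

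Lower means on day 3 were those of Cr2, Syk, Ralgps2 and Cxcr5. Cr2 was at 12.30, 12.51 and 12.67 in intact spleens 4 to 6 and at 11.38, 12.71 and 10.11 on day 3, a difference of -1.09 ± 0.93. Syk was at 10.95, 10.26 and 10.31 in the intact spleens and at 10.25, 10.85 and 8.77 on day 3, a difference of -0.55 ± 0.47. Both had their lowest value on replicate 3. Ralgps2 was at 13.79, 13.89 and 14.05 in the intact spleens and at 13.22, 14.48 and 12.46 on day 3 (-0.53 ± 0.59). Cxcr5 was at 8.05, 6.86 and 7.57 in the intact spleens and at 7.32, 7.84 and 6.02 on day 3 (-0.44 ± 0.47). The arrays of these 4 genes overlapped those of the intact spleens. The other pathway genes had a median of 0.03 on day 3, with 25 of 48 higher.

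**Figure D4:**
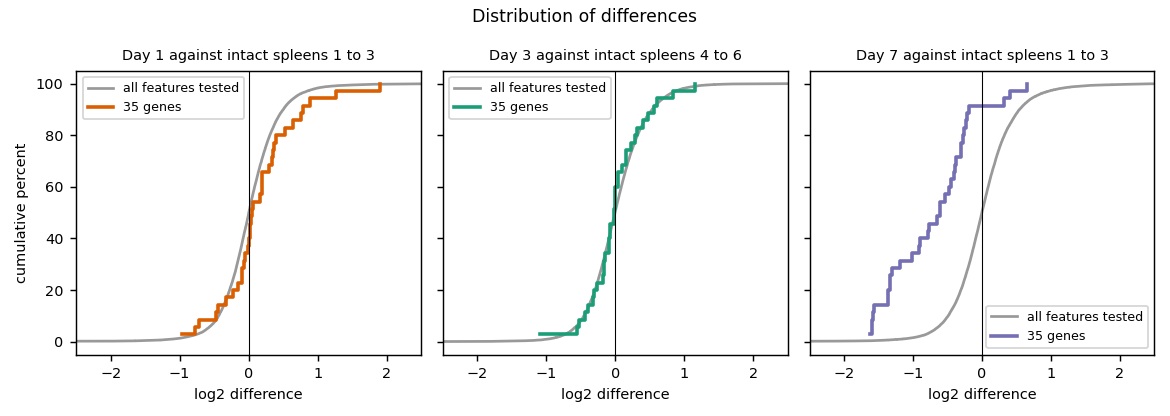
Cumulative distribution of the log2 differences of the 35 genes (coloured steps) and of all 22206 features tested (grey) for day 1, day 3 and day 7 against the set of intact spleens of each. The curves lie close on days 1 and 3, with medians of 0.05 and -0.02, and on day 7 that of the 35 genes lies to the left, with a median of -0.61.

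The sets of intact spleens also differed from each other in these genes. In intact spleens 4 to 6 30 of 35 members had a higher mean than in intact spleens 1 to 3, with a median of 0.87 against -0.02 over all features. Btla was called, as 1 of 35 members, against 0.59% of all features, or 0.36% in the higher direction. It was at 11.71, 11.67 and 11.73 in spleens 4 to 6, all above its values in spleens 1 to 3, and was higher by 1.65 ± 0.32 with an adjusted p of 0.0324 in limma. Leaving out intact spleen 1, 2, 4, 5 or 6 ended this call (adjusted p of 0.0758 to 0.1581). At an unadjusted p under 0.05 there were 11 members higher and 1 lower, against 5.64% and 5.94% of all features. In 20 members the arrays of spleens 4 to 6 lay wholly above the others, against 8.72% of all features, and in 1 wholly below, against 9.31%.

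The identity factors and receptor chains were among the genes that differed between the sets. Pax5 was at 10.68, 10.17 and 10.25 in intact spleens 4 to 6, above all 3 of the other set, by 1.70 ± 0.59 with an adjusted p of 0.2604 in limma. Cd79b was higher by 1.60 ± 0.60 and Cd79a by 1.02 ± 0.53, both without overlap in the values given above. Cd37 was at 12.49, 11.80 and 11.71 in spleens 4 to 6, a difference of 1.48 ± 0.65 and no overlap. Cd81 went the other way, by -1.65 ± 0.47 with an adjusted p of 0.1610 in limma and all arrays of spleens 4 to 6 below the others. Fcgr2b was at 10.54, 11.23 and 10.60, Cd72 at 11.62, 10.61 and 11.89 and Btk at 8.75, 9.48 and 8.84 in spleens 4 to 6. These 3 overlapped the other set, in which Btk was at 9.08, 9.54 and 9.06, and differed by -0.35 ± 0.49, -0.33 ± 0.57 and -0.20 ± 0.29. Of the other B cell markers Ly6d, a GPI-anchored protein on B cells, was called, with a difference of 4.57 ± 0.78 and an adjusted p of 0.0149 in limma. T cell genes were higher in 14 of 16 (median 0.73) and red pulp macrophage genes lower in 12 of 15 (median -0.89) in spleens 4 to 6. Neutrophil genes were lower in 12 of 15 (median -1.28) and erythroid genes in 11 of 12 (median -0.69), and the part of these lists in the values of the members was not tested. With intact spleen 3 alone as the first set the median of the members was 0.41 and Btla, at 1.16, was no longer called (adjusted p of 0.7045 in limma). With the acinar mean as a covariate Btla, at 1.35, was not called either (adjusted p of 0.4786 in limma).

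On days 1 and 3 the mean levels of Btla and Pax5 lay near those of their own sets, and on day 7 below both sets. Of the members, Btla and Pax5 had the most positive differences between the sets. Btla had means of 10.25 on day 1, 11.62 on day 3 and 8.71 on day 7, against 10.05 in intact spleens 1 to 3 and 11.70 in 4 to 6. Pax5 had means of 8.33, 10.06 and 7.06 on these days, against 8.67 and 10.37. In these genes the means of days 1 and 3 were thus each nearer to their own set than to the other. Single arrays did not all lie so, as Pax5 on day 3 replicate 3, at 8.88, lay within intact spleens 1 to 3. Cd79a and Cd79b also had day 1 and day 3 means nearer to their own sets, but several members went otherwise. Cd81 had a day 3 mean of 15.18 against 14.02 in its own set and 15.67 in the other. Cr2 had a day 3 mean of 11.40 against 12.49 in its own set and 11.18 in the other. Syk had a day 1 mean of 10.43 against 9.67 in its own set and 10.51 in the other. Blnk, Fcrl1, Pou2af1 and Inpp5d also had day 1 means nearer to the other set. Taken against the other set, day 1 had a median of -0.73 over the members and day 3 one of 0.80. Whether the sets differ by batch, by animals or otherwise is not given in the labels, and set and day cannot be told apart between day 3 and the other days.

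The means of days 1 and 7 were also compared directly. The standard errors and p-values came from the fit of all 15 arrays, intact spleens included. On day 7 32 of 35 members were lower than on day 1, with a median of -0.84 against 0.01 over all features. With limma 0 members were called, against 0.0585% of all features, and 14 members were lower at an unadjusted p under 0.05, against 7.12%. Btla (-1.54 ± 0.32) and Blk (-1.48 ± 0.31) had the smallest adjusted p, 0.0673 in limma. Ebf1 differed by -1.82 ± 0.52, Cd81 by -1.49 ± 0.47 and Inpp5d by -1.49 ± 0.37, all without overlap. In 16 members the arrays of day 7 lay wholly below those of day 1, against 9.68% of all features. The only positive values were those of Plcg2 (0.30 ± 0.52), Cr2 (0.18 ± 0.93) and Ptpn6 (0.09 ± 0.65). Without day 1 replicate 2, the low array, the median was -1.31 with 34 members lower. Without replicate 1 it was -0.54 with 27 lower and 6 at an unadjusted p under 0.05. The share of all features at this level in that setting is not given here. Other lists differed between these days too, as T cell genes were lower in 16 of 16 (median -1.30) and red pulp macrophage genes in 12 of 15 (median -1.32). Erythroid genes were higher in 12 of 12 (median 1.35) and neutrophil genes in 12 of 15 (median 0.78). Their part in the values of the members was not tested. Days 1 and 7 share intact spleens 1 to 3, which are also the reference of the comparison of sets, so that the 3 results are not independent.

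The differences of days 1, 3 and 7, each less its own intact set, were also compared with each other. Day 3 differed from day 1 by a median of -0.02, with 0 members called and 0 at an unadjusted p under 0.05, against 5.08% of all features. This median was -0.60 without day 3 replicate 2 and 0.38 without day 3 replicate 3, and -0.51 without day 1 replicate 2 and 0.37 without day 1 replicate 1. Day 7 differed from day 3 by a median of -0.78, with 30 of 35 members lower, 0 called and 3 lower at an unadjusted p under 0.05, against 3.07%. Without day 3 replicate 2 the median was -0.41 with 25 lower, and without day 3 replicate 3 it was -1.17 with 33 lower. In both comparisons 0% of all features were called.

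Within groups most of the B cell genes varied together. Over deviations of the 15 arrays from their group means, the median Pearson correlation of 595 pairs of members was 0.65, with 534 pairs above 0, as a description over arrays that share their tissue. Correlation of a gene with the mean of the other members was above 0.8 in 22 genes, led by Prkcb at 0.96 and Cd79b and Pax5 at 0.95. It was lowest in Inpp5d (-0.26), Dapp1 (-0.17), Btk (0.25) and Fcgr2b (0.30), all of them also strong in other blood cells. Genes of that class were among the highest too, with Prkcb, Swap70 (0.94) and Cd37 (0.91). Correlations among other features are not given here for comparison, and the part of other cell types in these values was not tested. The median SD of the members exceeded that of all features most on days 3 and 1 (1.06 and 0.76, against 0.34 and 0.29). On day 7 it was 0.35 against 0.32, and in intact spleens 1 to 3 0.48 against 0.29.

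**Figure D5:**
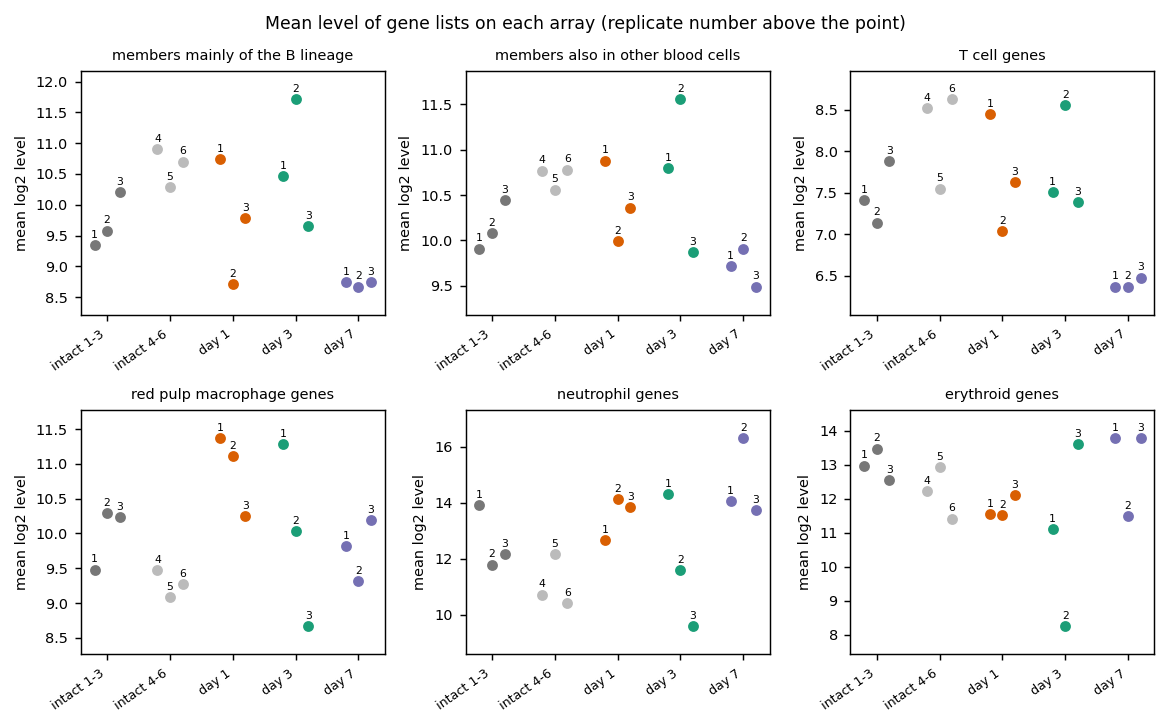
Mean log2 level of 6 gene lists on each array, with the replicate number above the point. Members mainly of the B lineage lie at 8.67 to 8.75 on day 7 and at 9.34 to 10.21 in intact spleens 1 to 3. Day 1 replicate 2, at 8.71, lies within the day 7 range. T cell genes are lowest on day 7, and neutrophil genes are highest on day 7 replicate 2.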

How the data were processed

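Log2 expression values were deposited by the authors, who made them by RMA (background correction, quantile normalization and probe summary) with the defaults of the Transcriptome Analysis Console. Whether the scale, which ends at 19.93, was transformed further is not given in the sources used here. The 28846 rows hold 6640 array controls. The remaining 22206 features were tested, dim ones included. One limma 3.58.1 fit (R 4.3.3) held 15 arrays and 5 group means (intact spleens 1 to 3, intact spleens 4 to 6, and each day), with Benjamini-Hochberg adjustment over all features. Arrays give no depth, and their number limits the precision. The steps were tested on simulated data.

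The members and lists were chosen with earlier results of these data known. Symbols came from the platform's annotation, and all 35 equal current RefSeq symbols. Values on every array are given for Cd79a, Cd79b, members called against their own intact set or between sets, and the 4 highest and 4 lowest differences of each day from its intact set and of the sets from each other. Blk was added after its values were seen. Lyn and Pou2f2 were not analysed here. The labels share replicate numbers between groups. The 9 same-numbered pairs had correlations of -0.21 to 0.21, 1 of them above 0.1, so no pairing was used. Alternatives were other intact sets, priors, scalings, thresholds, single arrays left out and, chosen after seeing the data, the acinar mean as a covariate and intact spleen 3 alone.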

Additional observations from a re-analysis of the deposited data

How the results depend on the processing

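The members called on each day and their median kept their side of the threshold and moved by less than the spread between arrays with only the groups compared, a trended and robust prior, median centring, further quantile normalization and without the dimmest 25% of features. The intact spleens used moved them most. Against the other set, day 1 had 328 features and 2 members called (median -0.73), day 3 had 207 and 1 (0.80) and day 7 had 1298 and 12 (-1.50). Against all 6, day 3 had 6 features called, and day 7 had 207 and 2 members (-1.14). Signs then turned for Cd79b on day 1 (-0.80 against all 6, -1.60 against the other set), Fcrl1 on day 1 (-0.08, other set), and Pou2af1 (-0.31) and Plcg2 (-0.29) on day 7 (other set). On day 3 against all 6 they turned for Ralgps2 (0.14), Cxcr5 (0.08), Cd79a (0.51) and Cd79b (0.65), and against the other set for Cr2 (0.22), Syk (0.28), Ralgps2 (0.80), Cxcr5 (0.60), Cd81 (-0.49), Cd79a (1.02) and Cd79b (1.45). The cause was not tested.

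With the acinar mean as a covariate the day 7 median was -0.92, Cd79b on day 1 was -0.13, Fcgr2b on day 7 was -0.01, and 17 features and 0 members differed between the intact sets. With intact spleen 3 alone as controls, 1 feature was called on day 1 and on day 7 (median -1.13), Cd79b on day 1 was -0.26, and 12 features and 0 members differed between the sets (0.41). Median centring gave Cd79a on day 3 a value of 0.04, and further quantile normalization gave Cd79b on day 1 one of -0.07. Only the groups compared gave 0 features on day 3 and 2 members between the sets. An adjusted p under 0.01 left 0 features on day 3, 45 features and 0 members between the sets and 1 feature between days 7 and 1. Day 7 against day 1 had 59 features called with a trended and robust prior, 54 with median centring and 2 with the acinar covariate.

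A threshold of a fold of 2 or more and an unadjusted p under 0.05 was passed by 460 features and 2 members on day 1, 451 and 1 on day 3, 771 and 9 on day 7, 888 and 10 between the sets, 1197 and 14 for day 7 against day 1, 610 for day 3 against day 1 less their sets, and 771 and 3 for day 7 against day 3 less theirs.

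Leaving out 1 array at a time gave 0 to 36 features on day 1 (most without intact spleen 3), 0 to 70 on day 3 (most without its replicate 3), 0 to 111 on day 7 (most without its replicate 3, 34 without intact spleen 3, median -0.89 to -0.42), 54 to 125 features and 0 to 1 member between the sets (fewest features without intact spleen 4, Btla called only without intact spleen 3), 0 to 54 for day 7 against day 1 (fewest without day 7 replicate 1, most without day 1 replicate 3), 0 to 9 for day 3 against day 1 (most without intact spleen 3) and 0 to 16 for day 7 against day 3 (most without day 7 replicate 3), each less its set. The range held both signs on day 1 for Cr2 (-1.94 to 0.54), Bank1 (-1.89 to 0.79), Ptpn6 (-1.03 to 0.20), Cd79a (-0.68 to 0.55) and Cd79b (-0.57 to 0.59). It did so on day 7 for Fcgr2b (-0.09 to 0.67) and Cd37 (-0.63 to 0.25), and between the sets for Cd72 (-0.59 to 0.05). On day 3 it did so for Syk (-1.0 to 0.04), Cxcr5 (-0.83 to 0.08), Tnfrsf13c (-0.15 to 1.25), Blnk (-0.04 to 1.33), Cd79a (-0.49 to 0.35) and Cd79b (-0.92 to 0.38).

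With the replicate block, 22 features were called for day 7 against day 1 in place of 13, and 0 members were called for day 1, for day 7 and between them. No paired analysis was possible for day 3 because its replicate numbers are not shared with intact spleens 4 to 6. Means over several features gave no other values, since each member has 1 feature.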
